A study of Mus musculus with 125 samples.

Results

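The comparison set mouse 2-cell embryos that grew from zygotes with a single pronucleus (1PN) against embryos from zygotes with a pair of pronuclei (2PN), within the cross written C57BL/6 xJF1/Ms. Members were chosen by label: 11 embryos labelled 1PN both as embryo type and in the submitters' in silico typing, and all 43 embryos labelled 2PN, together 54 of the 125 libraries of the series. The 8 1PN embryos of the cross that the in silico typing put with parthenotes were not members, nor were the 3 labelled dead or of low quality. All embryos share 1 protocol: zygotes were picked at 10 h from fertilization, their second polar body was taken out by micromanipulation, and each embryo was lysed alone at 34 h for RNA sequencing. The labels do not say which strain was the mother, nor whether embryos shared parents, so a p-value treats each embryo as independent. In the main fit the p-value of a gene rests on a spread estimated over all libraries fitted. These include parthenotes and embryos of the reciprocal cross, which are outside this comparison. The series title puts the parental pronuclei, apart or not, as the object of study, and the question here is whether RNA at the 2-cell stage differed between embryos that had formed 1 pronucleus and those that had formed a pair. Results are given with and without 1PN embryo 9, a library that stood apart from the rest.

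In a fertilized mouse egg the chromosomes of the mother and of the father usually sit in separate pronuclei until the first mitosis. A zygote with a single pronucleus can hold only the maternal genome, or both genomes inside 1 envelope. During the 2-cell stage the embryonic genome starts its main burst of transcription, maternal mRNA is degraded, and a short-lived set of multicopy genes, among them the Zscan4, Usp17l, Tdpoz, Pramef and Tcstv families, is transcribed and then shut off.

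In the edgeR fit used here 48 genes were called higher in 1PN embryos, and none of them was called once embryo 9 was left out. With all 11 1PN embryos 48 of 24380 genes tested were higher in 1PN (0.197%) and 0 were lower (edgeR quasi-likelihood test with Benjamini-Hochberg adjustment, adjusted p under 0.05). Without embryo 9 the same test called 0 of 24352 higher and 0 lower (0%). At an unadjusted p under 0.05 the counts were 1094 and 954 genes. No gene among the 24380 had values that failed to overlap between the groups. Of the 9230 genes that averaged 10 counts per 1000000 (CPM) or more in either group, 7871 (85.3%) had an approximate 95% interval of the fold change inside 2-fold up or down. Without embryo 9 this held for 83.0% of 9237 genes. Limma voom called 0 genes with all 11 embryos and 0 without embryo 9 (799 and 767 at an unadjusted p under 0.05), while DESeq2 called 28 higher and 3 lower with all 11. Other settings of edgeR called more. With dispersions estimated before the fit and the older form of the quasi-likelihood fit, it called 142 higher and 6 lower. This setting was chosen after seeing the data. Without embryo 9 edgeR so set called 41 higher, of which 1 was among the 48. With no filter on low counts it called 145 higher and 10 lower, and 17 and 14 without embryo 9. Of these 31 genes called without embryo 9, 4 were among the 48. With the total count of each library as a term in a fit of the 54 embryos edgeR called 0 (797 at an unadjusted p under 0.05).

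Total counts were 3426347 ± 709516 (SD, n = 11) in 1PN and 3818004 ± 648416 (SD, n = 43) in 2PN embryos. None of 5 library measures passed a 2-sided permutation test, with a smallest adjusted p of 0.477, for the total counts, and of 0.453 without embryo 9. Embryo 9 had the lowest total of the 1PN group, 2025580 counts, and the fewest genes detected, 17706. Its 50 most abundant genes took 23.8% of its counts, against a 1PN median of 14.4%. Its distance from the mean 2PN profile (1 minus the correlation of log2 values) was 0.233, against 0.0666 to 0.136 in the other 10. Among 2PN embryos, embryo 30 stood apart in the same measure (0.221) and had the lowest total, 1691418 counts, and the fewest genes detected, 14023. Its paternally expressed genes, given with the imprinted genes, also lay near those of the 8 1PN embryos typed as parthenotes, against its label. It had 32 Y-linked counts, more than the 2 to 9 of those 8 embryos. Parthenotes outside this comparison reached 23 such counts, while the 2PN embryos with at least 50 had 547 or more. The Y-linked counts of embryo 30 thus do not decide its label. Without 2PN embryo 30 edgeR called 51 genes higher with all 11 1PN embryos and 0 without embryo 9.

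The called genes held members of repeated families transcribed at the 2-cell stage, pseudogenes and gene models. Pseudogenes of Obox4, a homeobox gene of the oocyte and early embryo whose copies cluster on chromosome 7, made up 17 of the 48, out of 25 tested. The Zscan4 family, zinc finger and SCAN domain genes known for the 2-cell burst and for telomere maintenance in embryonic stem cells, gave 3 of 9 tested. Of these only Zscan4b is annotated as protein-coding, and Zscan4e and Zscan4-ps2 are annotated as pseudogenes. With them, pseudogenes made up 26 of the 48. Usp17l genes, which encode deubiquitinases, gave 2 of 6, and the Pramef and Pramel genes, leucine-rich repeat genes, 1 of 13. A further 7 were other pseudogenes and 15 were gene models without a proper symbol. The remaining 3 were Hip1, Isg15 and Irx2. Copies of a family share reads: a median of 48.1% of the nonzero values of the 48 were not whole, against 13.04% over all genes tested, so which copy was counted is uncertain.

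Embryo 9 had the highest value of the 1PN group in 47 of the 48, and in the same number no 2PN embryo reached it. It held more than 50% of the summed 1PN level in 45 of them, with a median of 94.4% over the 48. The exceptions were Irx2 (10.8%) and the gene models Gm49522 (30.4%) and BC080696 (45.7%). Without embryo 9, Gm49522 went from a log2 fold change of 2.23 to 1.79 and BC080696 from 2.93 to 2.10, and neither was called. Without embryo 9, 34 of the 48 had a negative log2 fold change and 13 a positive one, and 1 was not tested. The plot of fold changes with and without embryo 9 shows this shift.

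**Figure D1:**
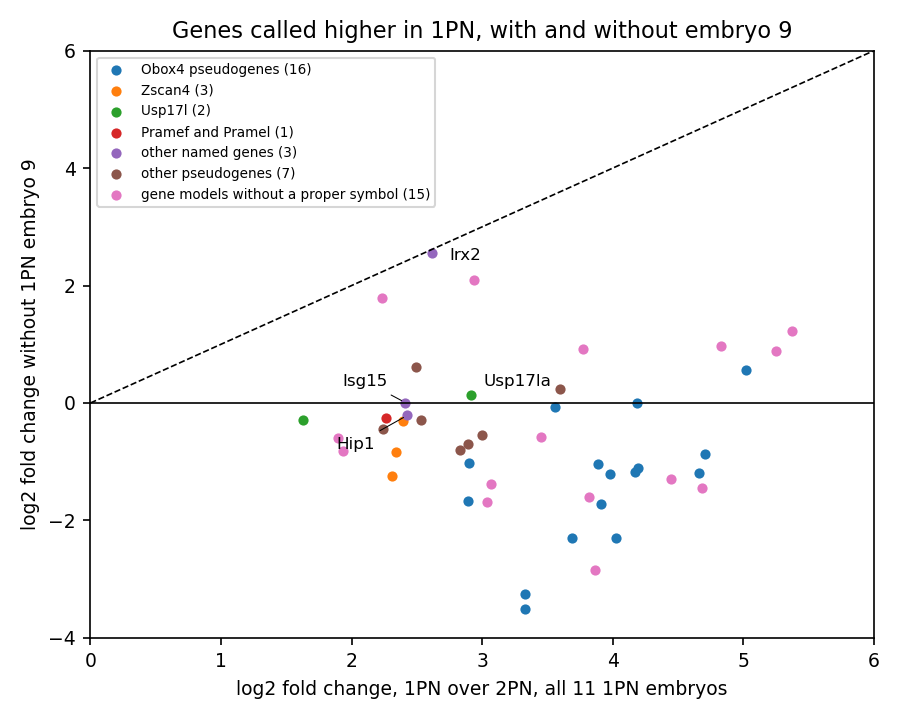
Log2 fold change (1PN over 2PN) of the called genes with all 11 1PN embryos (x axis) against the same without embryo 9 (y axis), coloured by family with the number plotted; the dashed line marks equal values. On the y axis 34 of the 47 genes plotted lie below 0, and Irx2 stays next to the line with 2.62 and 2.55.

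Zscan4a to Zscan4f summed to 5632 CPM in embryo 9, against 169 to 385 CPM in the other 10 1PN embryos. In 2PN embryos the sum ran from 51.7 CPM to 3175 CPM with a median of 197 CPM. The 10 other 1PN embryos thus lay inside the 2PN range, and 9 2PN embryos had more Zscan4 RNA than any of them. The highest 2PN values were those of embryo 1, with 3175 CPM, and embryos 14 and 24, with 1012 and 958 CPM. Outside this comparison, the 21 2PN embryos of the reciprocal cross reached 7298 CPM, above embryo 9, with a median of 298 CPM, and the 31 parthenotes had a median of 842 CPM.

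Zscan4b, on chromosome 7 at 10900740 to 10905050 (GRCm38), stood at 364 CPM in embryo 9 and between 3.37 and 21.6 CPM in the other 1PN embryos. In 2PN embryos it ran from 0.129 to 151 CPM with a median of 3.96 CPM. Its log2 fold change was 2.39 ± 0.51 (SE, adjusted p = 0.00520, edgeR) with all 11 embryos and -0.30 ± 0.59 (adjusted p = 1) without embryo 9. Zscan4d, a copy chosen after its values were seen, was not called and had 1897 CPM in embryo 9. Its other 1PN values were 55.7 to 201 CPM and its 2PN values 25.7 to 1291 CPM. The promoters of both, as RefSeq gives them on GRCm38.p6 (250 bases before the start to 50 after, both on the minus strand, printed 5′ to 3′ along the gene), are given to show what the copies have in common, with the letters TATAAA, on either strand, in capitals.
Zscan4b, chr7:10905001-10905300: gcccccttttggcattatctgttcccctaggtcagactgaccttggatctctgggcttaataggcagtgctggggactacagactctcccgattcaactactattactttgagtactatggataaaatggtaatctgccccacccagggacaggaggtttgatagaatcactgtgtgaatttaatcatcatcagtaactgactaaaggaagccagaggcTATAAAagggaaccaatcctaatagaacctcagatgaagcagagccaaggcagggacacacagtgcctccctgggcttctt
Zscan4d, chr7:11166099-11166398: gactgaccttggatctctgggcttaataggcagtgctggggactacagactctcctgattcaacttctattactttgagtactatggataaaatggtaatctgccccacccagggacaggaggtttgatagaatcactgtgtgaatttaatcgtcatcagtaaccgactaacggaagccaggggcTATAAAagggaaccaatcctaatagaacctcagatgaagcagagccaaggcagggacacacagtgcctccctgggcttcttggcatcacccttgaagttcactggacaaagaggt
Each holds TATAAA 1 time, 31 bases before the start in Zscan4b and 65 in Zscan4d, as do the promoters of Zscan4c and Zscan4f, and 13.6% of all 32851 promoters of this length hold it. They are poor in CG, with 1 in Zscan4b and 3 in Zscan4d against a median of 7 per promoter. Of the 48 called genes 7 had a promoter in the table.

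The other families showed the same embryo far above the rest. Obox4 pseudogenes summed to 6107 CPM in embryo 9, 63.4 to 289 CPM in the other 1PN embryos and 31.7 to 1388 CPM in 2PN embryos. Usp17l genes summed to 8308 CPM in embryo 9, 711 to 1930 CPM in the others and 519 to 4152 CPM in 2PN. Pramef genes summed to 2767 CPM in embryo 9, 250.1 to 673 CPM in the others and 143 to 1420 CPM in 2PN. In these 3 families no 2PN embryo reached embryo 9, and the other 10 1PN embryos lay within the 2PN range. Tcstv genes, short genes of the 2-cell stage, reached 3511 CPM in embryo 9 against a 2PN maximum of 1410 CPM. Tdpoz genes, which encode TRAF and POZ domain proteins, reached 627 CPM, and 1 2PN embryo was higher, embryo 1 with 734 CPM. The 7 Obox genes listed by name, the family of Obox4 itself, reached 6250.2 CPM in embryo 9, next to 6247 CPM in 2PN embryo 29.

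**Figure D2:**
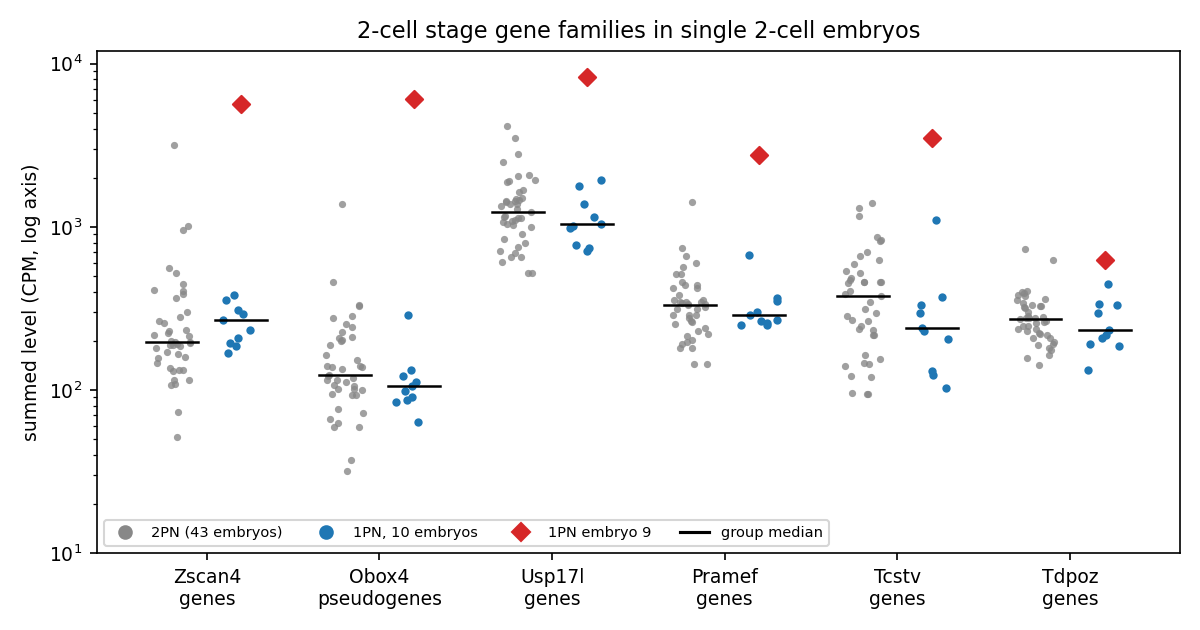
Summed level of 6 gene families (CPM, log axis) in each of the 54 embryos: grey points are 2PN, blue points the other 10 1PN embryos, the red diamond is 1PN embryo 9, and bars are group medians. Embryo 9 lies above every other embryo in the first 5 families, at 5632 CPM for Zscan4 and 6107 CPM for Obox4 pseudogenes. The blue points lie among the grey ones, except 1PN embryo 5 in Tdpoz (132 CPM, below the 2PN minimum of 143 CPM).

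Usp17la, on chromosome 7 at 104857016 to 104862667, stood at 1027 CPM in embryo 9, up to 96.0 CPM in the other 1PN embryos and up to 217 CPM in 2PN embryos. Its log2 fold change was 2.92 ± 0.54 (SE, adjusted p = 0.000441, edgeR), and 0.14 ± 0.62 (adjusted p = 1) without embryo 9. Usp17le had 640.1 CPM in embryo 9 against at most 56.6 CPM in the others and 109 CPM in 2PN, with 1.63 ± 0.38 (adjusted p = 0.0255, edgeR) and -0.28 ± 0.39 (adjusted p = 1) without embryo 9. Pramef6 had 2079 CPM in embryo 9, at most 179 CPM in the others and at most 848 CPM in 2PN, with 2.26 ± 0.45 (adjusted p = 0.00154, edgeR) and -0.25 ± 0.49 (adjusted p = 1) without it. In all 3 the 2PN embryos and the other 10 1PN embryos overlapped throughout.

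Hip1 and Isg15 belong to none of these families and followed the same embryo. Hip1, an adaptor between clathrin-coated vesicles and actin on chromosome 5 at 135406496 to 135545323, stood at 272 CPM in embryo 9, 0 to 9.15 CPM in the other 1PN embryos and 0 to 87.5 CPM in 2PN. Its log2 fold change of 2.43 ± 0.52 (SE, adjusted p = 0.00594, edgeR) became -0.21 ± 0.60 (adjusted p = 1) without embryo 9. The highest 2PN value was that of embryo 30 and the next was 18.2 CPM, and without both embryos the log2 fold change was 0.12 ± 0.54 (adjusted p = 1, edgeR). All of its values were whole counts. Isg15, a ubiquitin-like protein induced by interferon on chromosome 4 at 156199424 to 156200818, stood at 144 CPM in embryo 9, with 0 to 14.1 CPM in the other 1PN embryos and 0 to 21.3 CPM in 2PN. It went from 2.41 ± 0.52 (adjusted p = 0.00465, edgeR) to 0.01 ± 0.60 (adjusted p = 1) without embryo 9. The promoter of Isg15 (minus strand, printed along the gene) is given because it carries the letters of an interferon response element, GAAA, a pair of any bases and GAAA again, or the reverse complement, in capitals.
Isg15, chr4:156200769-156201068: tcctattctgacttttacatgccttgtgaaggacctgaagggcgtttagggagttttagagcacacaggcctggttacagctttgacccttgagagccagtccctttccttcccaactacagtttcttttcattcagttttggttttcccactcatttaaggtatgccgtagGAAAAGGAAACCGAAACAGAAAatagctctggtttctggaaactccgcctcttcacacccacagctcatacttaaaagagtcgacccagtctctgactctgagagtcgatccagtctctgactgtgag
These letters start at 3 places in it, and 3.44% of all promoters hold them at least 1 time. The match is a description of the sequence.

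Irx2 was the 1 called gene in which embryo 9 was not the highest 1PN embryo. It encodes an Iroquois homeobox transcription factor, a family known for patterning in later development, and lies on chromosome 13 at 72624430 to 72634196. Its 1PN values were 58.0 CPM in embryo 13, 19.1 in embryo 5, 17.7 in embryo 17, 16.3 in embryo 9, 14.6 in embryo 1 and 13.3 in embryo 12. The other 5 had 3.56 CPM in embryo 21, 3.23 in embryo 20, 3.01 in embryo 2, 1.83 in embryo 3 and 0 in embryo 15. In 2PN embryos it ran from 0 to 19.6 CPM with a median of 0.225 CPM, with no count in 21 of the 43. Thus 6 of 11 1PN embryos and 1 of 43 2PN embryos had at least 10 CPM. That 2PN embryo, embryo 24 with 19.6 CPM, lay above all 1PN embryos but embryo 13. The groups thus overlapped both above and below 10 CPM.

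The mean of Irx2 was 13.7 CPM ± 16.4 (SD, n = 11) in 1PN and 2.12 CPM ± 3.80 (SD, n = 43) in 2PN embryos, and it lay above the 2PN median in 10 of 11. The log2 fold change was 2.62 ± 0.50 (SE, adjusted p = 0.000635, edgeR) and 2.55 ± 0.52 (adjusted p = 0.0639) without embryo 9. Without 2PN embryo 30 these were 2.60 ± 0.51 (adjusted p = 0.000812, edgeR) and 2.53 ± 0.52 (adjusted p = 0.0765). The fold change moved little, while the call was lost without embryo 9, and also without embryo 13, with 2.10 ± 0.54 (adjusted p = 0.0772, edgeR). DESeq2 and limma voom gave 2.78 and 3.23 and did not call it (adjusted p = 0.239 and 0.491), nor did edgeR with a term for depth, at 2.10 (adjusted p = 0.218). Without embryo 9 a fit of the 53 embryos alone called Irx2 and no other gene, at 2.50 ± 0.47 (adjusted p = 0.0113, edgeR).

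The promoter of Irx2 (plus strand, at the start that the RefSeq table lists, inside the span above), given for its contrast with the Zscan4 promoters, has CG in capitals.
Irx2, chr13:72628570-72628869: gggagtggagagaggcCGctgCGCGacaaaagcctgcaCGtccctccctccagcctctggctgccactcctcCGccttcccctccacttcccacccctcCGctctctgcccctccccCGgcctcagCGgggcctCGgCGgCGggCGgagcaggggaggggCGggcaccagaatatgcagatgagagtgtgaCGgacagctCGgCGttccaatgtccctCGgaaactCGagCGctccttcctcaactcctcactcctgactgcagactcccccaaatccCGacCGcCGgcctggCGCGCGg
It holds 25 CG, and 18.4% of promoters hold as many or more. No TATAAA is in this window.

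Levels of Irx2 in the other labelled groups are given as a description, without a test. The 8 1PN embryos of the same cross that the in silico call put with parthenotes had a median of 10.4 CPM, with 4 of 8 at 10 CPM or more. The 31 C57BL/6 parthenotes had a median of 36.7 CPM, with 28 of 31 at 10 CPM or more. In the reciprocal cross, JF1/MsxC57BL/6, the 21 2PN embryos had 0 to 2.31 CPM and the 3 1PN embryos a median of 0.312 CPM and a maximum of 10.1 CPM. The median of the 11 1PN embryos, 13.3 CPM, thus lay between those of the 2PN embryos of either cross and that of the parthenotes.

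**Figure D3:**
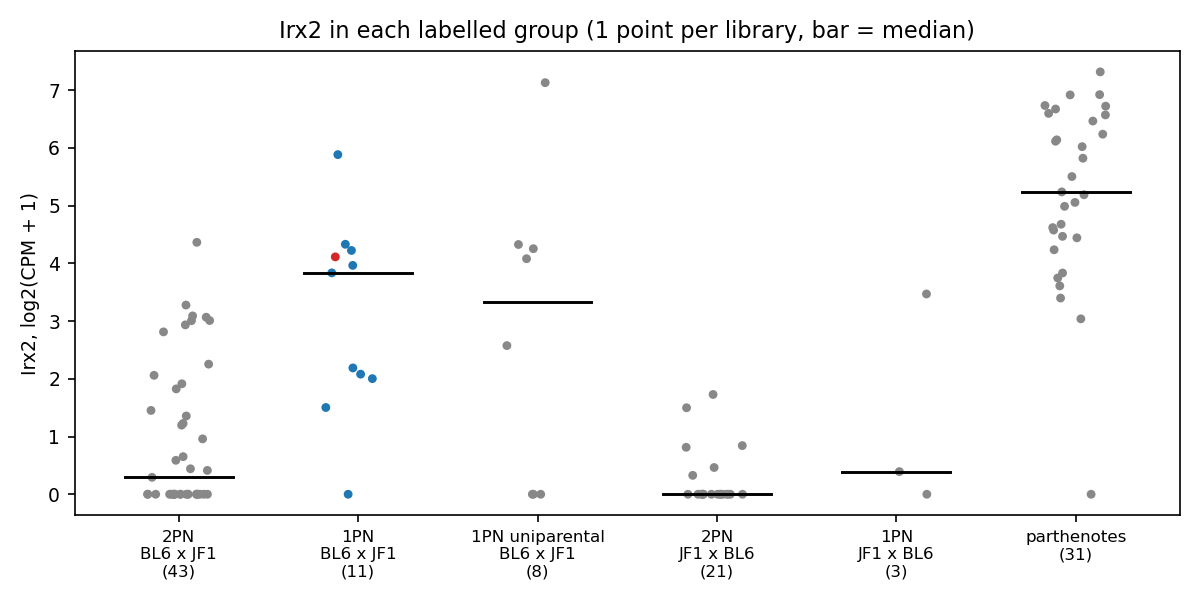
Irx2 level, log2(CPM + 1), in each library of 6 labelled groups, with the number of libraries under each name; blue points are the 1PN members, the red point is embryo 9, grey points are all other libraries, and bars are medians. BL6 and JF1 stand for C57BL/6 and JF1/Ms. In the 1PN group 6 of 11 points lie at 10 CPM or more, in the 2PN group of the same cross 1 of 43.

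Of the other Iroquois genes, Irx3 and Irx5 could be tested and did not pass. Irx5 ran from 0 to 18.9 CPM in 1PN and from 0 to 51.6 CPM in 2PN embryos, with a log2 fold change of 0.01 ± 0.62, and 0.08 ± 0.65 without embryo 9. Irx3 reached 6.42 CPM in embryo 9 and at most 0.835 CPM in the other 1PN embryos, with 0.19 ± 0.99, and -0.89 ± 1.22 without embryo 9. Embryo 13, the highest for Irx2, had 0 CPM of Irx5. In the 31 C57BL/6 parthenotes Irx5 had a median of 19.6 CPM, given without a test.

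Gene lists are described by counts and medians beside the same over all genes tested, whose median log2 fold change was -0.01 with all 11 embryos and -0.03 without embryo 9. Of 27 lists, 25 had no called member. Over all genes tested 0.197% were called higher and 0% lower with all 11 embryos, and 0% without embryo 9. At these shares 0 called does not set a list apart from other genes. The list of 2-cell stage transcripts had 5 of 49 higher and a median of 0.33, and without embryo 9 it had 0 called, a median of -0.22 and 43 of 49 members negative. Regulators of the zygotic genome's activation (ZGA), such as Ctcf and Polr2a, had 0 of 30 called and a median of -0.07 without embryo 9, and the interval of 29 of them lay within 2-fold. Polr2a, the large subunit of RNA polymerase II, had 130 CPM in embryo 9 against at most 27.9 CPM in the other 1PN embryos and 62.2 CPM in 2PN, with 0.41 with all 11 embryos and -0.28 without embryo 9 on the log2 scale.

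Oocyte-derived transcripts, the maternal store that is degraded at this stage, had 0 of 72 called, a median of -0.17 with all 11 embryos and -0.21 without embryo 9. Without embryo 9, 15 of the 72 were positive and 57 negative, while 46.3% of all genes tested were positive. Izumo1r, the egg's receptor for sperm, had -0.82 ± 0.44 (-0.78 without embryo 9) and Zar1, a maternal RNA-binding protein, -0.63 ± 0.34 (-0.56), and neither passed (adjusted p = 1, edgeR). Factors of maternal mRNA decay had 0 of 26 called and a median of -0.06 without embryo 9. Zfp36l2, which binds AU-rich elements and is needed for decay in the oocyte, stood at 0.75 ± 0.41, and at 0.83 without embryo 9. Tut4, which adds uridine to mRNA tails, stood at 0.53 ± 0.32 with all 11 embryos and at 0.16 ± 0.32 without embryo 9, the highest 1PN embryo for it.

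Lists of general cell functions also had no called member, and their intervals were narrow. Ribosome biogenesis had a median of -0.01 without embryo 9, with 70 of 72 intervals within 2-fold. Cytosolic ribosomal proteins had a median of -0.14 with 76 of 79 negative, and 77 of the intervals lay within 2-fold. Splicing factors had -0.04 with 49 of 49 within 2-fold, and proteasome subunits -0.01 with 36 of 37. Nucleoporins and nuclear transport genes, which build and serve the envelope that encloses each pronucleus, had a median of -0.03 with 56 of 59 within 2-fold. Kpna7, the importin alpha of the oocyte and early embryo, stood at -0.67 ± 0.30 without embryo 9 (adjusted p = 1, edgeR), with 10.5 to 54.5 CPM in 1PN and 12.3 to 189 CPM in 2PN embryos.

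For the nuclear envelope and lamina list the median was -0.05 without embryo 9, with 0 of 26 called. Syne2, a nesprin of the outer nuclear membrane, lay above the 2PN median in 11 of 11 1PN embryos, with 69.3 to 120.2 CPM against 26.6 to 132 CPM in 2PN, and 0.36 ± 0.18 with all 11 and also without embryo 9 (adjusted p = 1, edgeR). DNA replication genes had a median of -0.11 and 0 of 52 called, and genes of the spindle, kinetochore and cohesion -0.08 and 0 of 56. Bub1b, a kinase of the spindle checkpoint, lay above the 2PN median in 11 of 11, with 15.3 to 45.1 CPM against 1.97 to 38.95 CPM, and 0.69 ± 0.27 (adjusted p = 0.832, edgeR), and 0.72 without embryo 9. The p53 and DNA damage list had 0 of 40 called, apoptosis 0 of 33, and heat shock and stress 0 of 44. Chac1, a glutathione-degrading enzyme of the stress response, stood at 1.31 ± 0.49 with counts in 7 of 11 1PN and 27 of 43 2PN embryos (adjusted p = 0.822, edgeR), and at 1.39 without embryo 9.

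Histone chaperones and variants had a median of -0.05 without embryo 9 and 0 of 38 called, and factors of DNA methylation and imprint protection 0.09 and 0 of 32. Mbd1, which binds methylated CG, stood at 0.83 ± 0.29 (adjusted p = 0.746, edgeR) and at 0.88 without embryo 9, with 8.89 to 43.6 CPM in 1PN and 2.83 to 53.2 CPM in 2PN embryos. Early lineage genes had 0 of 34 called and mitochondrially encoded genes 0 of 13, the latter with all 13 intervals within 2-fold and a median of 0.07 with all 11 embryos and -0.08 without embryo 9.

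The paternal genome and the sexes were compared through imprinted and Y-linked genes. Imprinted genes expressed from the paternal allele had 0 of 44 called and a median of 0.06 with all 11 embryos and -0.08 without embryo 9, and those expressed from the maternal allele 0 of 35, 0.18 and 0.10. Zrsr1, a splicing factor retrogene read from the paternal allele, had 30.1 CPM in embryo 9 and 11.3 to 88.4 CPM in the other 1PN embryos, against 0 to 2.02 CPM in the 8 1PN embryos called parthenogenetic. In 2PN embryos Zrsr1 ran from 0 to 105 CPM. The value of 0 was that of 2PN embryo 30, which also had 0 CPM of Mcts2 and of Snhg14, the long transcript of the Prader-Willi region, and 0.887 CPM of Etv6, within or below the ranges of the 8. That embryo had the fewest genes detected of the 2PN group, 14023, and the part of this in its low values was not tested. Mcts2, a paternally expressed retrogene, stood at 14.8 CPM in embryo 9, below the 50.3 to 129 CPM of the other 10 and inside the 0.296 to 18.1 CPM of the 8. Etv6, expressed from the paternal allele in the early embryo, stood at 19.3 CPM, above the maximum of 4.86 CPM among the 8.

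Y-linked genes summed to at least 50 counts in 7 of 11 1PN embryos (63.6%, exact 95% interval 30.8 to 89.1%) and in 23 of 43 2PN embryos (53.5%, 37.7 to 68.8%). The difference did not pass Fisher's exact test, 2-sided (p = 0.736). Embryo 9 had 6 such counts, so the 7 were among the other 10. None of the 8 Y-linked genes passed, and Uty, a histone demethylase homologue, stood at 0.07 ± 0.48 (0.19 without embryo 9) and Eif2s3y, an initiation factor subunit, at -0.21 ± 0.68 (-0.09). Xist, the RNA that coats the inactive X, had 7.57 CPM in embryo 9, 0 to 4.77 CPM in the other 1PN embryos and 0 to 10.2 CPM in 2PN embryos, with 0.15 ± 0.68 with all 11 embryos and -0.20 ± 0.72 without embryo 9. Of 8 genes of X inactivation none was called.

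No marker of other cells was called, against 0.197% of all genes tested. Cumulus and granulosa genes had 0 of 13 called and summed to 19.99 to 131 CPM in 1PN and 20.2 to 146 CPM in 2PN embryos, with 3 of 24 listed genes at 0 in all 54. Sperm and testis genes had 0 of 12 called and summed to 52.7 to 195 CPM and 42.9 to 231 CPM. Blood and other somatic markers had 0 of 12 called and summed to 181 to 590 CPM and 90.7 to 792 CPM. Their part in the results was not tested. The 2-cell stage list itself was present in every embryo, with a mean level of at least 5.23 on the log2(CPM + 1) scale.

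Embryo 9 also stood apart in genes that were not called. Its mean level of 2-cell stage transcripts, 8.42 on the log2(CPM + 1) scale, was above all 43 2PN embryos (5.23 to 7.87) and the other 10 1PN embryos (5.73 to 7.03). It was below all 43 2PN embryos in 6 lists. Proteasome subunits stood at 4.998 in embryo 9, 6.25 to 7.26 in the other 1PN embryos and 5.56 to 7.52 in 2PN. Splicing factors stood at 5.73 against 6.78 to 7.23 and 6.27 to 7.18. Ribosome biogenesis stood at 5.62 against 6.76 to 7.61 and 6.11 to 7.66, and nucleoporins at 5.05 against 5.82 to 6.56 and 5.37 to 6.59. DNA replication and the spindle list were the remaining 2. Oocyte-derived transcripts, at 5.73, equalled the 1PN median of 5.73. The same embryo had 9.76% of its counts from mitochondrial genes, within the range of the other 10 (up to 9.79%). This is 1 embryo, so the pattern has no replicate among the 1PN embryos.

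The 2PN embryo nearest to this pattern was embryo 1, which had the highest 2-cell list level of its group, 7.87, and the lowest proteasome and splicing levels, 5.56 and 6.27. Its total was 2890430 counts. Without embryo 9 the levels of the other 10 1PN embryos lay inside the 2PN range in 24 of 27 lists.

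**Figure D4:**
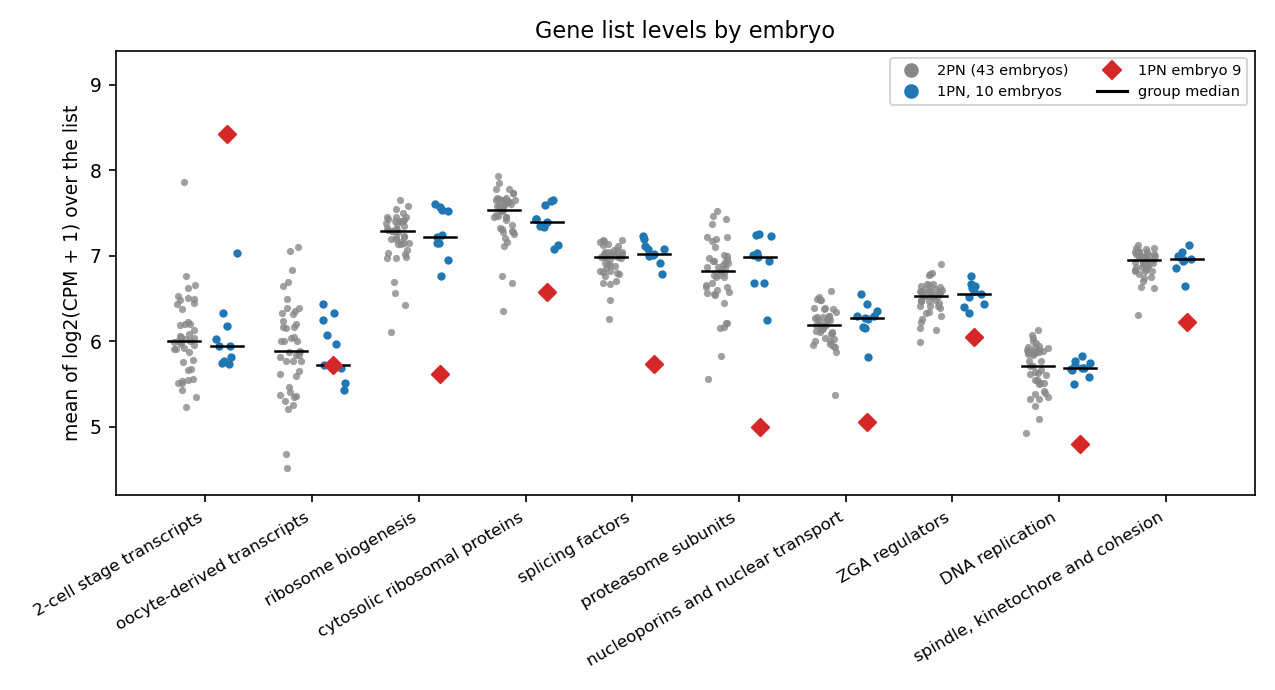
Mean log2(CPM + 1) over the genes of 10 lists in each of the 54 embryos: grey points are 2PN, blue points the other 10 1PN embryos, the red diamond is 1PN embryo 9, and bars are group medians. Embryo 9 lies at the top for 2-cell stage transcripts (8.42) and at the bottom for proteasome subunits (4.998). The blue points lie among the grey ones, except 1PN embryo 17 in splicing factors (7.23, above the 2PN maximum of 7.18).

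Several genes of the p53 and early lineage lists had their highest value of all 54 embryos in embryo 9. Gadd45g, a growth arrest gene, had 496 CPM in embryo 9, at most 231 CPM in the others and at most 366 CPM in 2PN. Plk2, a polo-like kinase, had 333 CPM in embryo 9, at most 64.7 CPM in the others and at most 89.7 CPM in 2PN. Sox17, an endoderm transcription factor, had 20.2 CPM in embryo 9, at most 0.915 CPM in the others and at most 5.24 CPM in 2PN. None of these 3 passed with all 11 embryos (adjusted p = 0.829, 1 and 1, edgeR), and without embryo 9 their log2 fold changes were 0.58, -0.39 and -0.61.

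Without embryo 9 the genes with the smallest unadjusted p, none of them called in the main fit (adjusted p = 1, edgeR, except Irx2), are given by value. Of 7 alternatives without embryo 9, 1 called Cbx8, 1 Nrros, 1 Irs2 and 1 Hook3. The other genes named below were called in none of the 7. On the higher side, Cbx8, a Polycomb chromobox protein, had 4.40 to 24.9 CPM in 1PN with a median of 15.1 CPM, and 0 to 20.3 CPM with a median of 2.32 CPM in 2PN. It lay above the 2PN median in 11 of 11, and its log2 fold change without embryo 9 was 1.60 ± 0.46. Nrros, a negative regulator of reactive oxygen species, also lay above the 2PN median in 11 of 11, with 2.92 to 43.2 CPM against 0 to 19.5 CPM and 1.44 ± 0.39 without embryo 9. Irs2, an insulin receptor substrate, had 1.46 ± 0.46 and its highest value, 106 CPM, in embryo 13. Also on this side were Arid3c, a DNA-binding protein (1.33 ± 0.39), and Crybg1 (1.17 ± 0.34). In each of these genes 1PN and 2PN values overlapped.

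On the lower side Hook3, a microtubule adaptor, had the largest difference, -4.14 ± 1.12 without embryo 9, and rested on the top of the 2PN range. Its 2PN maximum was 3085 CPM beside a median of 4.66 CPM, while 1PN values were 1.14 to 9.96 CPM. Leaving out 2PN embryo 30 as well gave -1.20 ± 0.72. The medians, 3.38 CPM in 1PN and 4.66 CPM in 2PN, were close. Esyt2, a tether between the endoplasmic reticulum and the plasma membrane, had 12.3 to 74.4 CPM in 1PN and 27.7 to 117 CPM in 2PN embryos, with -0.60 ± 0.21. Far2, a fatty acyl-CoA reductase, had -0.53 ± 0.19, Idua, a lysosomal enzyme, -0.998 ± 0.35, and Rdh10, a retinol dehydrogenase, -0.52 ± 0.20. Ifitm6 had -0.90 ± 0.34, Ergic2 -0.44 ± 0.17 and Zfp708, a zinc finger gene, -0.98 ± 0.39. All 8 overlapped between the groups. The genes named here on either side kept their direction with all 11 embryos.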

How the data were processed

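RNA was measured in 125 single-embryo libraries, of which 54 are compared here. The authors deposited estimated counts per gene without scaling, and 28.4% of the nonzero values are not whole. Per the submitters' processing notes reads were handled with HISAT2 2.0.5 and featureCounts 2.0.0 on GRCm38. For annotation, strand and shared reads, settings were not given in the sources used here. Total counts were 2025580 to 4370694 in 1PN and 1691418 to 4887274 in 2PN embryos. No pair of libraries in a group agreed within sampling noise (lowest chi-square per gene 16.9).

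Estimated counts were rounded and tested in R 4.3.3 with edgeR 4.0.16 (glmQLFit, which sets its own common dispersion, and glmQLFTest; TMM factors; filterByExpr by group) on 121 libraries in 7 groups, with Benjamini-Hochberg adjustment over all genes tested and a threshold of 0.05. The 121 are all but the 1 library labelled dead and the 3 of low quality. The fitting step was run on simulated counts for the 54 embryos alone, with no embryo set apart. That run does not test the fit of 121 libraries. A standard error is the log2 fold change divided by the root of F. CPM are counts per 1000000 of the library total, before rounding, and list levels are means of log2(CPM + 1). Of 43421 gene identifiers 43266 matched a symbol. Coordinates and promoters come from RefSeq on GRCm38.p6. Library measures were compared by permutation tests with 100000 resamples in scipy 1.17.1.

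Genes were named by rule: those called with or without embryo 9 with the largest changes, the 8 with the smallest p in each direction without embryo 9, if the higher group averaged 10 CPM or more and at least 0.5 of its embryos had a count, and up to 3 of each list. Some genes that the rule names are not reported here. The members and lists were chosen with earlier results of these data known. Alternatives were DESeq2 1.42.0, limma 3.58.1 (voom), other filters, factors, terms and libraries, and each 1PN embryo left out.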

Additional observations from a re-analysis of the deposited data

How the results depend on the processing

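The 48 genes called higher became 28 with DESeq2, 0 with limma voom, 145 with no filter on low counts, and 14 in a fit of the 54 embryos only, on 15828 genes. In that smaller fit a term for the 2 sets in which the series lists its libraries gave 11 and one for depth 0. These sets follow the order of listing and are not a labelled batch. Leaving out 1PN embryos in turn gave 0 to 54 called higher and 0 to 1 called lower: 0 higher without embryo 9 and 46 to 54 without any other. The 0 called lower became 3 with DESeq2, 10 with no filter and 1 with libraries of at least 1000000 counts. Dispersions estimated before the fit (estimateDisp) with the older form of the quasi-likelihood fit called 142 higher and 6 lower, 46 of them among the 48. This alternative was chosen after seeing the data and changes both steps at once. Without embryo 9 the 0 called higher became 41 with this alternative, 17 with no filter and 1 with the 53 embryos only. The 0 called lower became 3 with DESeq2 and 14 with no filter. Of the 41, 1 was among the 48, Irx2 at 2.62 ± 0.61 (adjusted p = 0.0234, edgeR). Of the 31 called with no filter and without embryo 9, 4 were among the 48. Over the embryos left out, the log2 fold changes ran from -0.21 to 2.59 for Hip1, -0.28 to 1.77 for Usp17le, -0.25 to 2.39 for Pramef6 and -0.30 to 2.54 for Zscan4b, each lowest without embryo 9. The cause of these differences was not tested. The remaining alternatives (robust fit, RLE factors, a mean of at least 10 CPM, counts not rounded, without 2PN embryo 30) gave 37 to 51 called higher and 0 lower.

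Title numbers recur in both groups. Of 11 same-numbered pairs 2 had deviations correlated over 0.1 (median -0.08), and 0 correlated best with their own number. These correlations cannot show whether embryos shared parents. A replicate block was fitted on the 22 embryos with a shared number only, since an embryo without a partner carries no information on a block. It called 0 genes, as did the same 22 without the block (0). Precision was lower over all 24380 genes tested, of which 42.8% had an interval within 2-fold; the part of depth in this was not tested.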
